A study of Homo sapiens with 12 samples.

Results

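The 32 genes described here make sterols and fatty acids or control their making through the sterol regulatory element-binding proteins (SREBPs). They were chosen by name among the 62700 genes of the table of estimated counts, and all 32 were found and passed the filter on low counts, which 18049 genes passed in all. Poly(A) RNA came from HCT116 TIM-mAID cells, a human colorectal carcinoma line in which CRISPR knock-in joined a mini auxin-inducible degron (mAID) to TIMELESS, a protein of the replication fork. All 4 groups carry that tagged gene, and nothing in the labels says whether the line is a single clone. The groups received DMSO as vehicle, 5-Ph-IAA at 1 µM, an auxin analogue that triggers degradation of degron-tagged proteins, the ATR kinase inhibitor ceralasertib at 1 µM (ATRi), or both compounds (5-Ph-IAA/ATRi, called the combination below), each for 40 h with 3 biological replicates. The series title places them in work on cell fate in replication catastrophe.

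SREBPs are made as membrane-bound precursors of the endoplasmic reticulum. SCAP escorts them to the Golgi, where proteases free the part that enters the nucleus and switches on target genes, and INSIG proteins hold SCAP back while sterols are plentiful. SREBF2 encodes SREBP-2, known mainly for the genes of cholesterol synthesis, and SREBF1 encodes SREBP-1, known mainly for those of fatty acid synthesis. Dividing tumour cells need both products for new membrane.

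In the combination 3 of the 32 genes were lower than in each of the other 3 groups: SCD, the desaturase that makes oleate and palmitoleate, ACACA, the carboxylase that makes malonyl-CoA, and SREBF1. None of the 32 rose past the test in any comparison, and neither compound alone moved any of them past it. A call here means a Benjamini-Hochberg adjusted p under 0.05 in edgeR's quasi-likelihood test, adjusted over all 18049 genes. Against DMSO, 3 of 32 genes were lower, where 6.89% of all genes were called lower and 6.24% higher. The share of these genes called lower is thus near that of all genes. Against ATRi the same 3 were lower, with 1.88% of all genes called lower and 1.63% higher, and against 5-Ph-IAA again the same 3, with 5.04% lower and 4.38% higher. These comparisons share the combination libraries and are not independent of each other.

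Promoter sequence is shown for those 3 genes and for SREBF2, the only gene of the set whose window held a sterol regulatory element-like match. Each run is the 250 bases before the first start that RefSeq lists (GRCh38.p14), read 5′ to 3′ on the gene's strand. Capitals mark the motifs searched on both strands: the SRE-like TCACNCCAC, the CCAAT box CCAAT, the GC box GGGCGG and the E-box CACGTG. The windows lie at chr10:100346983-100347232 (+) for SCD, chr17:37406837-37407086 (-) for ACACA, chr17:17836987-17837236 (-) for SREBF1 and chr22:41832855-41833104 (+) for SREBF2.
SCD: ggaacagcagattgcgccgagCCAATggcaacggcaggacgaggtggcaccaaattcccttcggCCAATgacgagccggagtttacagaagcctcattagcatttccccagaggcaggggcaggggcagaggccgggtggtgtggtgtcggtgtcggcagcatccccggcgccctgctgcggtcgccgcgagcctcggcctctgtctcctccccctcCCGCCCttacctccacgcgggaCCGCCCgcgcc
ACACA: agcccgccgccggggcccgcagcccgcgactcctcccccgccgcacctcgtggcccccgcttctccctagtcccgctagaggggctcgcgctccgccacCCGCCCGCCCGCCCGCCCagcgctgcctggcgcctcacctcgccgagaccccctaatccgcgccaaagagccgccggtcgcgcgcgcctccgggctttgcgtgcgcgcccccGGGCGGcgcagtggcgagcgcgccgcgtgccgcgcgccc
SREBF1: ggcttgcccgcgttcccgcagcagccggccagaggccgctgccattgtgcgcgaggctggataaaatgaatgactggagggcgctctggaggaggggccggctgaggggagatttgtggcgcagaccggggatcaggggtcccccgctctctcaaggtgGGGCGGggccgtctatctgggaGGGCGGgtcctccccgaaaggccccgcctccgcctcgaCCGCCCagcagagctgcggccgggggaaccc
SREBF2: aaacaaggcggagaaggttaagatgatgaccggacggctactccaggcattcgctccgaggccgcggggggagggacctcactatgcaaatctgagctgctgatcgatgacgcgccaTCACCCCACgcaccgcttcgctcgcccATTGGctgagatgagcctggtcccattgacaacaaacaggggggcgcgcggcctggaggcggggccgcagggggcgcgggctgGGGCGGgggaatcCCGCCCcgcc
The ACACA run holds 4 overlapping GC boxes between -151 and -134 from the start and another at -39 to -34, and no CCAAT box. SREBF1 has 3 GC boxes and no CCAAT box, and SCD has 2 of each. The SREBF2 match, TCACCCCAC, lies at -133 to -125, and a CCAAT box lies at -106 to -102. Promoter windows were at hand for 28 of the 32 genes (not for ACAT2, FASN, FDFT1 and SQLE, which RefSeq does list as genes). Of these 28 windows, 18 (64.3%) held a CCAAT box, against 33.0% of 27305 promoters of the same length, and 26 (92.9%) held a GC box, against 42.3%. The SRE-like letters stood in 1 window (3.57%, against 0.875%) and the E-box in 3 (10.7%, against 6.49%). Base composition differed as well, with a median GC content of 67.2% in the 28 windows and 58.0% in all promoters. These matches describe the letters only, and 9 of the genes have other starts that were not counted.

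Library totals ran from 27.7 M to 34.7 M counts. Their means did not pass a 2-sided exact permutation test against DMSO (p = 0.9 for 5-Ph-IAA, 0.2 for ATRi and 0.1 for the combination, n = 3 per group), where 3 against 3 cannot go below 0.1. Mitochondrial transcripts took 6.63% to 14.9% of counts, with a mean of 9.81% ± 4.49 in DMSO and 12.2% ± 1.64 in the combination (SD, exact permutation p = 0.5, n = 3). TIMELESS RNA ranged from 30.5 to 67.9 TMM-scaled CPM (a level relative to the total of the library) in DMSO, from 39.6 to 63.0 CPM in 5-Ph-IAA and from 30.3 to 46.9 CPM in ATRi. In the combination it ranged from 17.6 to 24.5 CPM, lower than in DMSO (-1.18 ± 0.30 SE on the log2 scale, adjusted p = 0.0233) and 5-Ph-IAA (-1.11 ± 0.30, adjusted p = 0.0377), and it did not pass against ATRi (-0.72 ± 0.29, adjusted p = 0.239). Since the degron acts on the protein, RNA levels do not check the labels. The epithelial markers EPCAM, KRT8, KRT18, KRT19 and CDH1 were each above 63.2 CPM in every library, whereas the intestinal VIL1 and CDH17 stayed under 0.691 CPM. Of 12 markers of other cell types, 11 stayed at or under 2.65 CPM, with PTPRC and CD3E at 0 in 6 and 9 libraries. COL1A1 reached 35.1 to 105.8 CPM. Some markers moved with the combination. KRT8 (2.56-fold, adjusted p = 0.000191), KRT18 (2.06-fold, adjusted p = 0.0224) and KRT19 (1.85-fold, adjusted p = 0.0122) were higher there than in DMSO. EPCAM (-0.35 ± 0.18 SE on the log2 scale, adjusted p = 0.243) and CDH1 (0.06 ± 0.16, adjusted p = 0.854) did not pass. The 7 epithelial markers summed to 4279 to 6371 CPM in DMSO and 9977 to 11421 CPM in the combination, a rise that not every marker shared. CD14, a monocyte marker, was 5.34-fold higher (adjusted p = 0.00183) but stayed at or under 0.752 CPM. The 12 markers of other cell types summed to 36.3 to 109 CPM in DMSO and 47.2 to 72.6 CPM in the combination. The part of these shifts in the results below was not tested. In bulk RNA, fewer cells of a kind and less RNA per cell cannot be told apart.

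SCD (chr10:100347233-100364826) was the most abundant of the 32 per length. Its level in DMSO was 406.9 ± 114.5 TMM-scaled CPM per kb of its longest coding transcript (SD, n = 3), followed by FASN at 79.9 ± 44.5 and SREBF1 at 73.7 ± 12.1, while FADS2 was lowest at 3.33 ± 1.07. In CPM without the length term, SCD measured 2196, 1561 and 2789 in DMSO, 1657, 2246 and 2729 in 5-Ph-IAA, 1748, 2545 and 2283 in ATRi, and 802.9, 945.8 and 814.1 in the combination. Every combination library lay below all 9 others. SCD was 2.55-fold lower in the combination than in DMSO (log2 fold change -1.35 ± 0.24 SE, adjusted p = 0.00425). It was 2.57-fold lower than in ATRi (-1.36 ± 0.24, adjusted p = 0.0149) and 2.59-fold lower than in 5-Ph-IAA (-1.37 ± 0.24, adjusted p = 0.00572). As a share of all counts, SCD went from 0.148% to 0.288% in DMSO libraries to 0.0795% to 0.0926% in the combination. The pseudogene SCDP1 averaged 4 counts beside 60089 for SCD.

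ACACA (chr17:37084992-37406836) read 231.0, 219.9 and 243.3 CPM in DMSO, 217.2, 221.7 and 232.5 in 5-Ph-IAA, 202.5, 224.1 and 210.9 in ATRi, and 162.1, 127.3 and 154.1 in the combination. Its libraries spanned 0.15 on the log2 scale in DMSO and 0.35 in the combination. The combination libraries again lay below the 9 others, the highest at 162.1 and the lowest of the others at 202.5 in ATRi 1. ACACA was 1.57-fold lower than in DMSO (-0.65 ± 0.12, adjusted p = 0.00434), 1.44-fold lower than in ATRi (-0.52 ± 0.12, adjusted p = 0.0335) and 1.51-fold lower than in 5-Ph-IAA (-0.60 ± 0.12, adjusted p = 0.00938).

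The other 6 genes of fatty acid synthesis did not pass the test against DMSO, although all 8 log2 fold changes were negative. FASN, the fatty acid synthase that uses malonyl-CoA, measured 630.7, 333.3 and 1090 CPM in DMSO, 681.2, 559.2 and 1204 in 5-Ph-IAA, 603.5, 664.8 and 1060 in ATRi, and 592.4, 472.2 and 706.1 in the combination. Its DMSO libraries span 3.27-fold and enclose all the combination values (-0.21 ± 0.41, adjusted p = 0.797). ACLY, which supplies cytosolic acetyl-CoA from citrate, gave -0.02 ± 0.27, and ELOVL6, which lengthens palmitate, -0.11 ± 0.12. ACSS2, which makes acetyl-CoA from acetate, gave -0.65 ± 0.32 (adjusted p = 0.22). Of the front-end desaturases of polyunsaturated fatty acids, FADS1 gave -0.50 ± 0.27 and FADS2 -0.26 ± 0.29. These overlap in RefSeq, as do other pairs such as ACAT2 and TCP1, and since the strand setting of the counting is not given in the sources used here, their counts are less certain.

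SREBF1 (chr17:17811334-17836986) was lower in the combination while the rest of the sensing machinery did not pass the test. Its levels were 284.4, 372.8 and 282.5 CPM in DMSO, 319.8, 348.9 and 254.3 in 5-Ph-IAA, 271.6, 305.9 and 269.7 in ATRi, and 177.0, 190.1 and 142.1 in the combination. No library of the combination reached the lowest of the others, 254.3 in 5-Ph-IAA 3. The fall was 1.85-fold against DMSO (-0.88 ± 0.17, adjusted p = 0.00567), 1.66-fold against ATRi (-0.73 ± 0.17, adjusted p = 0.0364) and 1.81-fold against 5-Ph-IAA (-0.86 ± 0.17, adjusted p = 0.00944). RAI1, whose span overlaps it, averaged 1334 counts a library beside 8465 for SREBF1. The gene-level counts do not tell apart the SREBF1 isoforms, which differ in their first exons.

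SREBF2 stood at 179.2, 131.3 and 233.1 CPM in DMSO, 152.7, 181.4 and 227.8 in 5-Ph-IAA, 149.3, 190.6 and 219.2 in ATRi, and 132.4, 137.4 and 136.4 in the combination. The combination libraries sit together at the low edge, level with DMSO 2 (-0.42 ± 0.22, adjusted p = 0.243). SCAP read 62.5, 61.4 and 64.9 CPM in DMSO, 59.9, 62.0 and 67.0 in 5-Ph-IAA, 59.8, 61.9 and 70.8 in ATRi, and 66.2, 64.7 and 71.2 in the combination, with overlapping groups (0.10 ± 0.10, adjusted p = 0.615).

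INSIG1, itself a classic SREBP target, had the widest spread of all 32 between DMSO replicates. Its values were 38.3, 13.8 and 61.8 CPM in DMSO, 44.2, 25.3 and 66.9 in 5-Ph-IAA, 46.8, 36.4 and 51.0 in ATRi, and 25.1, 24.6 and 18.8 in the combination. DMSO 2 lies below the combination and DMSO 1 and 3 above it (-0.73 ± 0.45, adjusted p = 0.339). INSIG2, the other INSIG gene, read 20.5, 22.1 and 24.0 CPM in DMSO, 16.7, 21.3 and 23.3 in 5-Ph-IAA, 20.7, 25.2 and 21.8 in ATRi, and 23.4, 20.2 and 24.1 in the combination (0.02 ± 0.15, adjusted p = 0.948). Its groups overlap throughout.

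**Figure D1:**
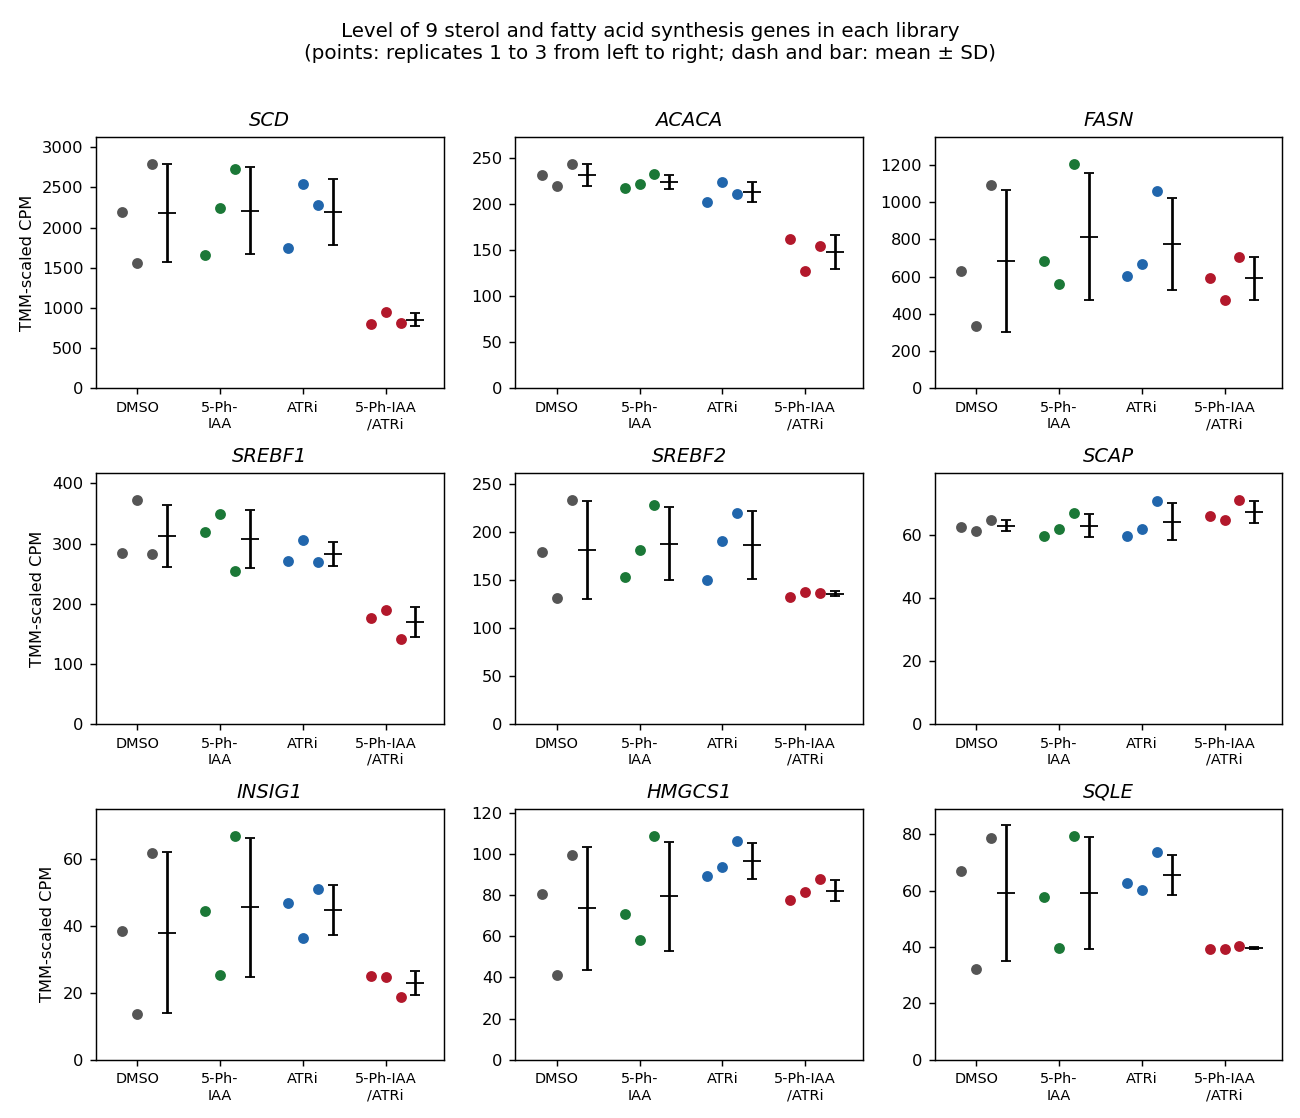
TMM-scaled CPM of 9 of the genes in each library; coloured points are replicates 1 to 3 from left to right, and the dash with bars is the mean ± SD (n = 3). In the panels of SCD, ACACA and SREBF1 the combination points lie below all others, whereas in those of FASN, INSIG1, HMGCS1 and SQLE the lowest point is DMSO 2.

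The 7 genes from acetoacetyl-CoA to farnesyl diphosphate had no member past the test in the combination against DMSO, and 5 of the 7 log2 fold changes were positive (median 0.12). HMGCS1, which makes HMG-CoA, read 80.4, 41.0 and 99.5 CPM in DMSO, 70.9, 58.3 and 108.9 in 5-Ph-IAA, 89.4, 93.7 and 106.1 in ATRi, and 77.6, 81.3 and 87.7 in the combination. The DMSO libraries spread on both sides of the combination (0.16 ± 0.29, adjusted p = 0.788). IDI1, the isopentenyl diphosphate isomerase, gave 0.34 ± 0.34, and the kinases MVK and PMVK gave 0.12 ± 0.18 and 0.10 ± 0.15. MVD, the decarboxylase that follows them, gave 0.13 ± 0.20. The negative ones were ACAT2, the cytosolic thiolase at the head of the route (-0.63 ± 0.28, adjusted p = 0.179), and FDPS, the farnesyl diphosphate synthase (-0.38 ± 0.22, adjusted p = 0.298).

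Nor did any of the 11 genes from squalene to cholesterol pass, with 7 log2 fold changes negative and 4 positive. SQLE, the squalene epoxidase, read 66.9, 32.3 and 78.6 CPM in DMSO, 57.8, 39.8 and 79.5 in 5-Ph-IAA, 62.8, 60.3 and 73.5 in ATRi, and 39.4, 39.2 and 40.2 in the combination. The combination libraries agree closely and lie between DMSO 2 and DMSO 1 (-0.58 ± 0.30, adjusted p = 0.243). LSS, the lanosterol synthase, gave -0.57 ± 0.25 (adjusted p = 0.17). EBP, the sterol isomerase, gave -0.43 ± 0.19 (adjusted p = 0.172). Against them, TM7SF2, a sterol C14 reductase, gave 0.50 ± 0.29, and the C4 demethylation enzymes NSDHL and HSD17B7 gave 0.34 ± 0.18 and 0.32 ± 0.22. FDFT1, the squalene synthase, gave -0.14 ± 0.27, and CYP51A1, the lanosterol demethylase, gave -0.26 ± 0.25. MSMO1, the C4 methyl oxidase, gave -0.06 ± 0.25, SC5D, the lathosterol desaturase, 0.08 ± 0.19, and DHCR7, the reductase of 7-dehydrocholesterol, -0.22 ± 0.24. HSD17B7 averaged 377 counts beside 93 for its pseudogene HSD17B7P2, so reads may be split between them. STARD4, which carries cholesterol between membranes, gave -0.19 ± 0.42. With the replicate number as a block, LSS passed as lower in the combination against 5-Ph-IAA (-0.65, adjusted p = 0.00582), ATRi (-0.61, adjusted p = 0.0139) and DMSO (-0.53, adjusted p = 0.0122), and TM7SF2 passed as higher against DMSO (0.54, adjusted p = 0.0171). In that fit 19.6%, 11% and 25.3% of all genes passed in the 3 comparisons, against 9.41%, 3.51% and 13.1% without the block.

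**Figure D2:**
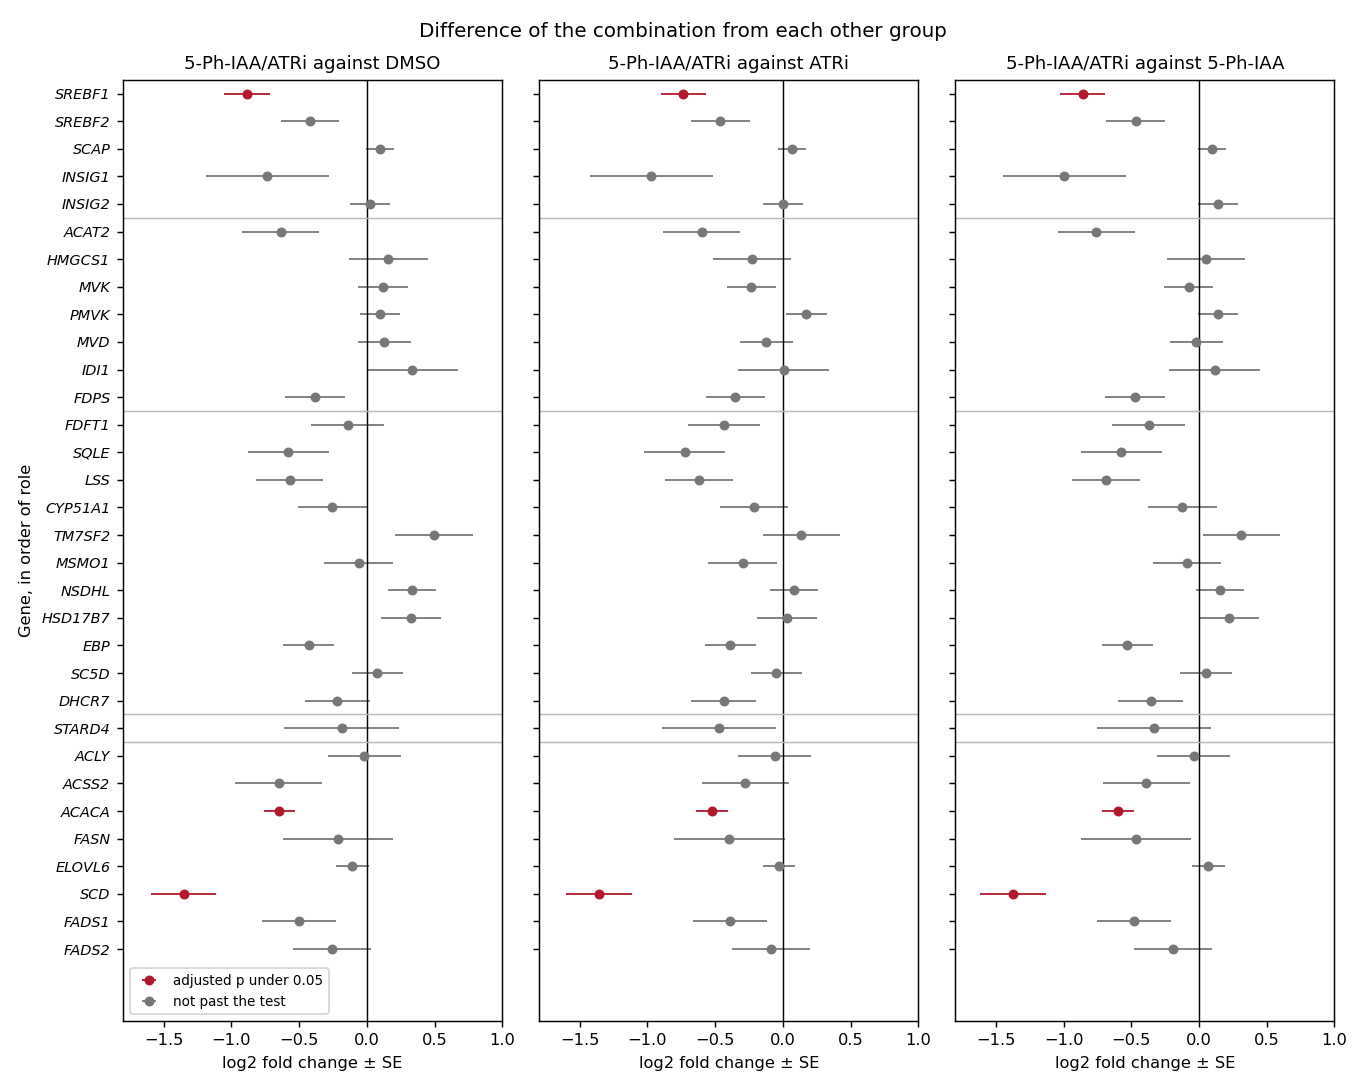
Log2 fold change ± SE of each of the 32 genes, in order of role, in the combination against DMSO, ATRi and 5-Ph-IAA. SREBF1, ACACA and SCD (red) are past an adjusted p of 0.05 in all 3 panels; grey genes are not.

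Counted without a test, more of the 32 genes lay wholly below ATRi and 5-Ph-IAA in the combination than passed. The count against DMSO was not above the share of all genes. Against ATRi, all combination libraries lay below all ATRi libraries for 14 of the 32, and for 14.0% of all genes. The 14 are SREBF1, SREBF2, INSIG1, ACAT2, HMGCS1, MVK, FDPS, FDFT1, SQLE, LSS, MSMO1, DHCR7, ACACA and SCD. Against 5-Ph-IAA the groups parted this way for 9 of the 32 and for 14.0% of all genes. Against DMSO they did so for 4 of the 32 and for 15.9% of all genes, and the 4 are SREBF1, EBP, ACACA and SCD. HSD17B7 was the only gene of the set whose combination libraries all lay above those of DMSO, as 16.4% of all genes did. The median log2 fold change of the 32 was -0.20 against DMSO (all genes -0.02), -0.29 against ATRi (all genes 0.00) and -0.26 against 5-Ph-IAA (all genes -0.01). The median against DMSO was 0.07 without DMSO 3 and -0.43 without DMSO 2, and that against 5-Ph-IAA was -0.02 without 5-Ph-IAA 3, so those medians rest on single libraries. That against ATRi stayed between -0.335 and -0.207 without each of its 6 libraries.

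The calls differ in how much each library carries. Leaving out any 1 library of either group kept SCD, ACACA and SREBF1 past the test against DMSO and against 5-Ph-IAA. Against ATRi, SREBF1 and ACACA lost their calls without any 1 of the 6 libraries, with adjusted p from 0.0893 (without ATRi 3) to 0.156 (without 5-Ph-IAA/ATRi 3) for SREBF1 and from 0.0794 (without 5-Ph-IAA/ATRi 1) to 0.138 (without ATRi 2) for ACACA. SCD kept its call against ATRi without ATRi 1 (adjusted p = 0.0265) and lost it without ATRi 2 (0.0637), ATRi 3 (0.053), 5-Ph-IAA/ATRi 1 (0.0756), 2 (0.0534) or 3 (0.0757). Its log2 fold change stayed between -1.50 and -1.23 in those refits. Across the 6 refits against ATRi, 0.726% to 1.2% of all genes passed, against 3.51% with all 12 libraries. Without DMSO 2, ACAT2 (-0.93, adjusted p = 0.0166), SQLE (-0.88, adjusted p = 0.0294) and FDPS (-0.62, adjusted p = 0.0339) also passed against DMSO. In that refit 12.9% of all genes passed, beside 6.68% without DMSO 1, 9.26% without DMSO 3 and 13.1% with all libraries.

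Neither compound alone gave a call among the 32 by edgeR, DESeq2 or limma-voom, and none of the 32 had an unadjusted p under 0.05 against DMSO. With ATRi, 0.0665% of all genes were called, and with 5-Ph-IAA 0.00554%. Log2 fold changes of the 32 ran from -0.37 to 0.39 with ATRi (median 0.05) and from -0.26 to 0.26 with 5-Ph-IAA (median 0.07). SCD gave 0.01 ± 0.24 with ATRi and 0.02 ± 0.24 with 5-Ph-IAA. SREBF1 gave -0.15 ± 0.17 and -0.03 ± 0.17, and ACACA -0.12 ± 0.12 and -0.05 ± 0.12. HMGCS1 had the highest value with ATRi (0.39 ± 0.29). The medians turned with single libraries here too: with ATRi the median was -0.05 without DMSO 2 and 0.27 without DMSO 3, and with 5-Ph-IAA it was -0.10 and 0.27.

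The interaction term asks whether the log2 change of the combination departs from the sum of the changes with each compound. None of the 32 genes passed it, where 0.0776% of all genes did, and 3 of the 32 had an unadjusted p under 0.05, as did 7.3% of all genes. Its value was -1.38 ± 0.34 for SCD (adjusted p = 0.253), -0.71 ± 0.24 for SREBF1 (adjusted p = 0.473) and -0.48 ± 0.16 for ACACA (adjusted p = 0.5). DESeq2 called SCD here (adjusted p = 0.0154). For 28 of the 32 the value was negative, the exceptions being SCAP, INSIG2, PMVK and ELOVL6, and the median was -0.36 (all genes 0.00). With 1 library left out, the median ran from -0.57 (without DMSO 3) to -0.23 (without DMSO 2). Without DMSO 2 or without 5-Ph-IAA 3, 21 of the 32 values were negative. Negative values were not counted over all genes. A difference from additivity was therefore not shown by the main edgeR fit for any of these genes. In other edgeR fits SREBF1 passed with the replicate number as a block (1.19% of all genes). SREBF1 and SCD passed with the mitochondrial share as a covariate (1.54% of all genes).

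**Figure D3:**
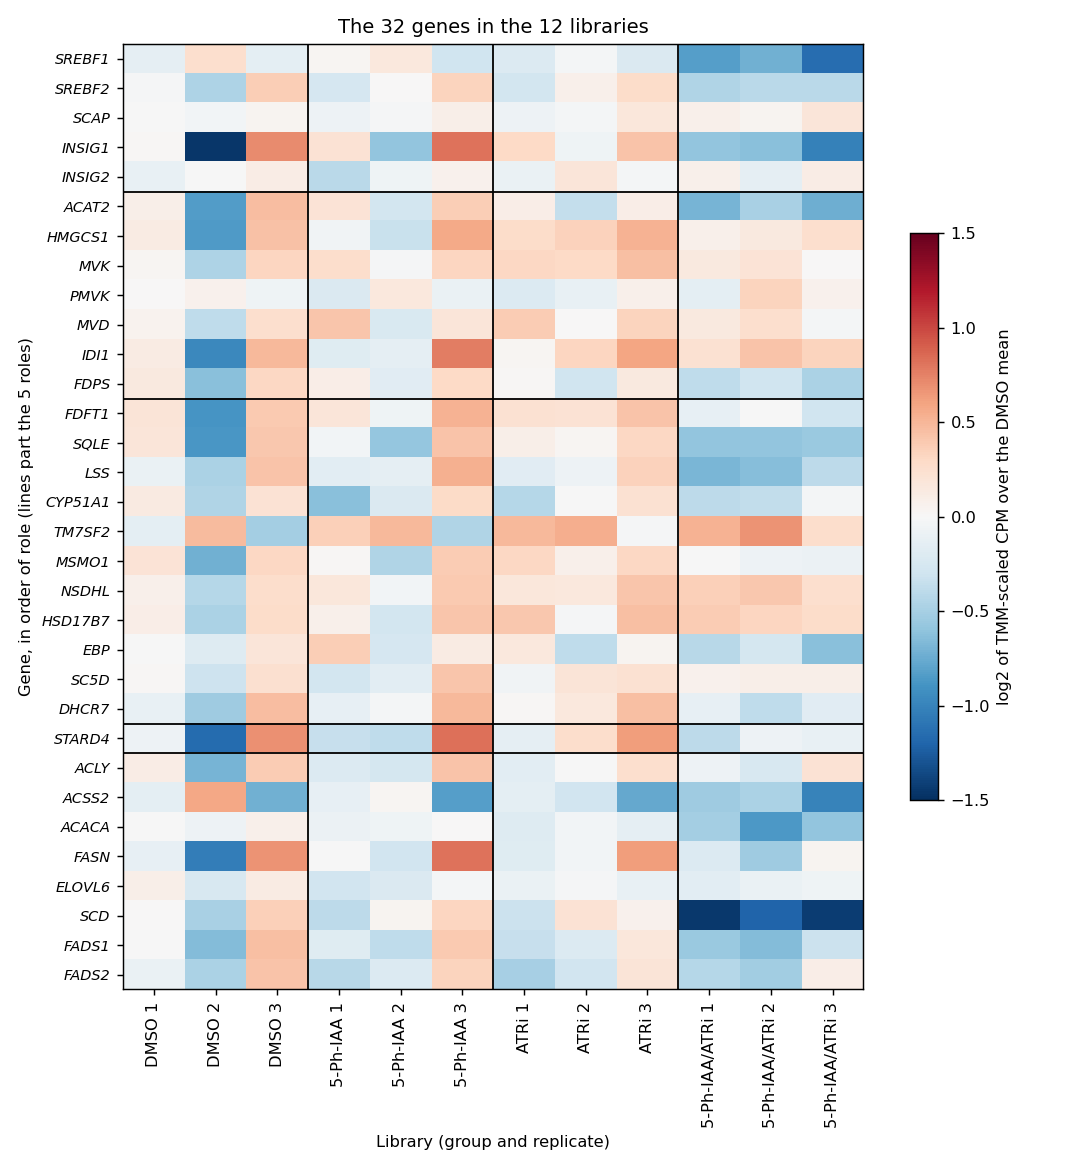
Log2 of TMM-scaled CPM over the DMSO mean for the 32 genes (rows, in order of role) in the 12 libraries (columns). DMSO 2 is blue and DMSO 3 red for most genes, the third libraries of 5-Ph-IAA and ATRi are mostly red, and SCD, ACACA and SREBF1 are blue in all 3 combination libraries.

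Replicates of a group differed widely and mostly together in these genes. Within DMSO, 27 of the 32 were lowest in DMSO 2 and 28 were highest in DMSO 3, whereas over all genes 43.4% were lowest in DMSO 2 and 39.4% highest in DMSO 3. The median deviation from the group mean was -0.42 (log2) in DMSO 2, 0.37 in DMSO 3 and 0.06 in DMSO 1. In 5-Ph-IAA, library 3 was highest for 26 of the 32 (median deviation 0.32) and for 38.8% of all genes. In ATRi, library 3 was highest for 21 (0.15) and for 34.9% of all genes. The highest library minus the lowest spanned a median of 0.91 in DMSO, 0.69 in 5-Ph-IAA, 0.44 in ATRi and 0.27 in the combination (log2). In DMSO the widest was INSIG1, at 4.49-fold, then STARD4 at 3.56-fold and FASN at 3.27-fold. For 27 of the 32 genes the range between DMSO libraries exceeded the change in the combination, and the other 5 were SREBF1, SCAP, EBP, ACACA and SCD. The same count was not made over all genes. The median SD of log2 levels was 0.44 over the 32 in DMSO and 0.14 in the combination, beside 0.23 and 0.14 over the 9978 genes of at least the mean level of the lowest member.

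Mitochondrial share moved with part of this spread. DMSO 2 had 14.9% and DMSO 3 6.63%, 5-Ph-IAA 3 had 6.79% and ATRi 3 7.40%, while the combination libraries held 10.7% to 13.9% and median deviations of 0.00 to 0.02. In DMSO, 5-Ph-IAA and ATRi the library with the lowest mitochondrial share had the highest median level of the set. The highest share did not always go with the lowest level: 5-Ph-IAA 1 had 13.6% and a median deviation of -0.09, while 5-Ph-IAA 2 had 10.0% and -0.21. SREBF1, ACSS2, TM7SF2 and PMVK ran the other way in DMSO, highest in DMSO 2 and lowest in DMSO 3. ACSS2 read 73.7, 122.1 and 49.5 CPM in DMSO, and TM7SF2 62.3, 95.7 and 48.2. With the mitochondrial share as a covariate, SCD, ACACA and SREBF1 passed in the combination against DMSO as before, together with ACSS2 (lower, -0.87, adjusted p = 0.0017) and with IDI1, NSDHL and HMGCS1 (higher, 0.78, 0.49 and 0.49). The median of the 32 was then 0.05. These 7 of 32 stand beside 35.7% of all genes, which passed with that covariate.

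**Figure D4:**
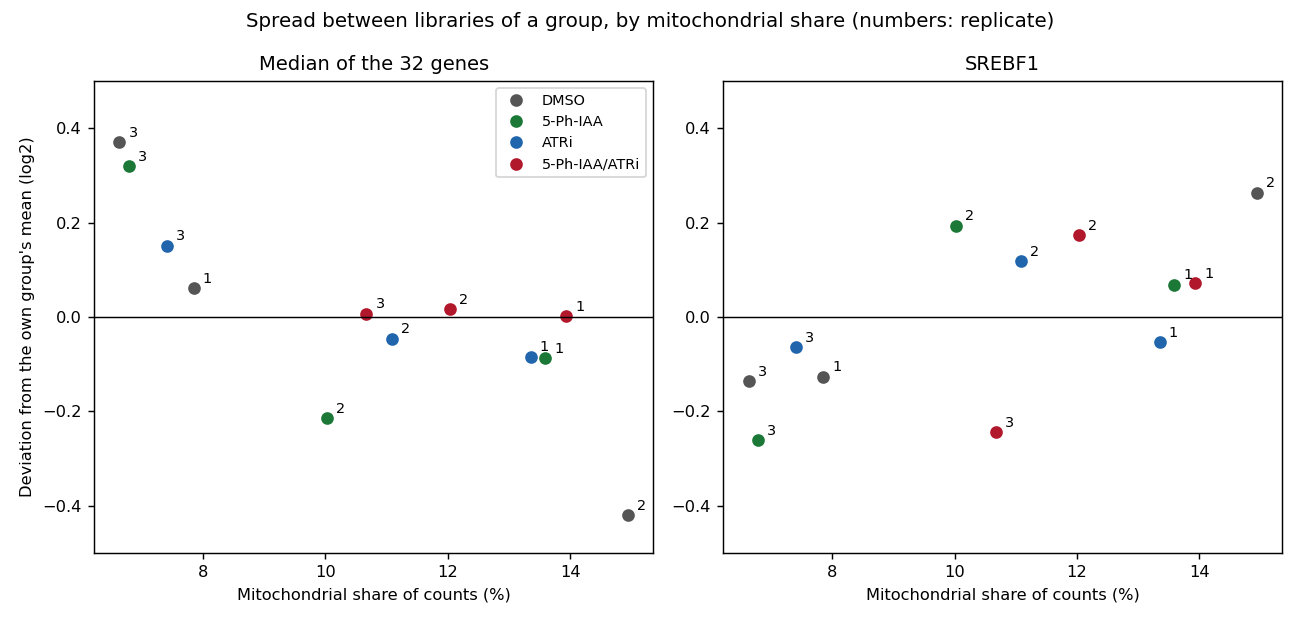
Deviation from the mean of the library's own group (log2, y axis) against the mitochondrial share of counts (percent, x axis), for the median of the 32 genes (left) and for SREBF1 (right); each point is a library, numbered by replicate. On the left, DMSO 3 and 5-Ph-IAA 3 are high at low shares and DMSO 2 is lowest at the highest share, and on the right DMSO 2 is highest.

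Around the core routes, 1 or 2 genes of each list passed the test in the combination against DMSO, where 6.24% of all genes were called higher and 6.89% lower and their median log2 fold change was -0.02. Counts of 1 or 2 in lists of 12 to 20 genes are too small to be set apart from those shares, and no list was tested against them. Of 12 genes of SREBP processing and turnover (median 0.03), 2 rose: FBXW7, the ubiquitin ligase subunit that marks nuclear SREBPs for degradation, from 34.7, 39.7 and 32.7 CPM to 55.8, 58.5 and 60.4 (0.71 ± 0.11, adjusted p = 0.00227), and SAR1B, a GTPase of the vesicles that leave the endoplasmic reticulum (0.40 ± 0.11, adjusted p = 0.0353). FBXW7 was also higher than in 5-Ph-IAA (0.68 ± 0.11, adjusted p = 0.00441), but it did not pass against ATRi (0.31 ± 0.11, adjusted p = 0.172). Its ATRi libraries read 47.6, 50.8 and 42.2 CPM, between those of DMSO and the combination. Of 17 tested genes of sterol trafficking, storage and efflux (median -0.04), 1 rose, ABCA1, the cholesterol exporter (0.98 ± 0.22, adjusted p = 0.012). It read 5.57, 5.29 and 6.26 CPM in DMSO, 6.74, 10.9 and 8.97 in ATRi, and 10.2, 11.1 and 12.6 in the combination. No gene of that list passed in the combination against ATRi.

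Of 14 genes that use isoprenoids (median 0.02), 1 fell, COQ2, which attaches the polyprenyl tail of coenzyme Q. It read 18.6, 16.0 and 19.1 CPM in DMSO and 9.23, 10.4 and 9.76 in the combination (-0.87 ± 0.13, adjusted p = 0.0013). COQ2 was lower than in ATRi too (-0.56 ± 0.13, adjusted p = 0.0344). No other gene of these lists passed in the combination against ATRi, where 3.51% of all genes did. Of 20 other genes of fatty acid and glycerolipid synthesis (median -0.15), ELOVL1, an elongase of very long chains, rose (0.47 ± 0.11, adjusted p = 0.0145) and ACACB, the mitochondrial-surface counterpart of ACACA, fell (-0.74 ± 0.19, adjusted p = 0.0233). Of 17 genes of fatty acid oxidation (median 0.10), 2 fell: HADH, a short-chain hydroxyacyl-CoA dehydrogenase (-0.78 ± 0.15, adjusted p = 0.00679), and ACAA2, a mitochondrial thiolase (-1.02 ± 0.22, adjusted p = 0.0108). Next by adjusted p, and not past the test, were ETFB, a subunit of the flavoprotein that takes electrons from acyl-CoA dehydrogenases (0.36 ± 0.11, adjusted p = 0.0587), and RABGGTA, a subunit of the enzyme that prenylates Rab proteins (0.44 ± 0.14, adjusted p = 0.064). FBXW7, COQ2 and HADH kept their calls without any 1 of the 6 libraries. SAR1B lost its call without each of them, ABCA1 without DMSO 1 or 5-Ph-IAA/ATRi 3, ACAA2 without DMSO 1 or 5-Ph-IAA/ATRi 3, ELOVL1 without DMSO 1, 5-Ph-IAA/ATRi 1 or 5-Ph-IAA/ATRi 3, and ACACB without DMSO 1, DMSO 3, 5-Ph-IAA/ATRi 1 or 5-Ph-IAA/ATRi 2.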

How the data were processed

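Poly(A) RNA of 12 libraries was sequenced. The deposited table holds estimated counts per gene. The submitters' processing notes name, with no role or order, Salmon 1.10.1, STAR 2.7.9a, SAMtools 1.17, cutadapt 3.4, Trim Galore 0.6.7, FastQC 0.12.1 and build GRCh38.p14. For the annotation release, read filters and strand setting: not given in the sources used here. The authors' file is named for Salmon, which divides reads among similar transcripts, so genes with near copies are less certain.

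Groups and replicate numbers came from the sample titles, which call the number a set. Counts were rounded (13.6% were not whole), filtered with filterByExpr (minimum count 10, minimum total 15), scaled by TMM and tested by edgeR 4.0.16 under R 4.3.3 (with limma 3.58.1), using a quasi-likelihood fit to all 12 libraries, for 5 pairwise contrasts and the interaction. P values were adjusted by Benjamini-Hochberg over the 18049 genes. Levels are TMM-scaled CPM. Values per kb use the longest coding transcript of GENCODE v29. Deviations between libraries use log2(CPM + 0.5). Between 5-Ph-IAA and the combination all 3 same-numbered pairs of libraries deviated together (r = 0.494, 0.235 and 0.655). The main fit has no block, so tests given without one are unpaired, there as elsewhere. With the replicate number as a block, SCD, ACACA and SREBF1 stayed past the test as lower than in 5-Ph-IAA. The fit was tested on simulated counts, drawn independently for each library, so that test cannot speak to libraries that deviate together. The chi-square between replicates was at least 16.4 per gene, above sampling noise. Total counts per library set the counting precision. Library totals and mitochondrial shares were compared with scipy 1.17.1. Motif letters were searched in RefSeq promoters.

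The 32 genes, the other lists and the tests were chosen with earlier results of these data known. Values are printed for all 32 genes, per library for those past the test in any contrast and for SREBF1, SREBF2, SCAP, INSIG1, INSIG2, HMGCS1, SQLE, FASN and SCD, and for up to 4 genes of each other list with the smallest adjusted p in the combination against DMSO, of which those past the test and the next 2 are printed. Alternatives were other scalings (DESeq2 size factors, totals, upper quartile), other filters, unrounded counts, DESeq2 1.42.0, limma-voom, the compared groups alone, the replicate number as a block, the mitochondrial share as a covariate, 8 libraries, and each library left out. VLDLR did not pass the filter. Some genes of the pathway are not reported here.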

Additional observations from a re-analysis of the deposited data

How the results depend on the processing

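With either compound alone against DMSO, 0 of the 32 genes passed under every alternative run. In the combination against DMSO (3 genes), 6 passed with the replicate number as a block (25.3% of all genes), which added LSS, ACSS2 and TM7SF2. With the mitochondrial share as a covariate 7 passed (35.7% of all genes). Leaving out each library gave 3 to 6 (6.68% to 12.9% of all genes, against 13.1% in the main fit). Against 5-Ph-IAA (3 genes), 7 passed with that covariate (IDI1 higher, and LSS, EBP and ACSS2 lower, added; 30.5% of all genes), and the block added LSS. Against ATRi (3 genes, and 3.51% of all genes), 1 passed in the fit of 8 libraries (0.355% of all genes). That fit leaves out DMSO 2, 5-Ph-IAA 1, ATRi 1 and 5-Ph-IAA/ATRi 1. With each library left out, 0 to 1 passed against ATRi (0.726% to 1.2% of all genes). There SREBF1 lost its call with upper quartile factors (adjusted p = 0.0742) and ACACA with no count filter (adjusted p = 0.124), which tests more genes. ACACA also lost it with the compared groups alone (adjusted p = 0.051), where INSIG1 and SQLE gained calls and 5.68% of all genes passed. The block and the covariate each added LSS against ATRi (11% and 17.7% of all genes). In the 8 libraries SREBF1 also lost its calls against DMSO (adjusted p = 0.0617) and 5-Ph-IAA (adjusted p = 0.0618), with fewer samples. In that fit 9.01% and 4.47% of all genes passed in these 2 comparisons. For the interaction (0 genes), 1 passed with DESeq2 (SCD), 1 with the replicate block (SREBF1, adjusted p = 0.0498) and 2 with the covariate (SREBF1 and SCD), where 1.22%, 1.19% and 1.54% of all genes passed. Apart from fewer genes tested or fewer samples, the cause was not tested. Same-numbered libraries correlated with r of -0.141 to 0.86, over 0.1 in 13 of 18 pairs and at or under it in 5. Of the groups compared, all 3 pairs were over 0.1 only between 5-Ph-IAA and the combination. The main fit used no pairing in any comparison, and the block was run as an alternative. The titles give that number as a set, with 1 library of each group in each set. What the libraries of a set share is not stated. That 10 of 12 libraries correlated best with their own number is a hint of pairing from the data. In the other lists, the counts against DMSO rose most with the covariate, from 2 to 12 of 17 for fatty acid oxidation and from 2 to 10 of 20 for other fatty acid and glycerolipid synthesis, while all genes went from 13.1% to 35.7%. Among the 32, no gene past the test turned its direction under any alternative run. Direction was not compared in this way for the genes of the other lists. FADS2 averaged 354 counts a library and SCD 60089. The part of depth and of the spread between 3 libraries in the missing calls was not tested.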
